A study of Mus musculus with 19 samples.

Results

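The set comprised 55 genes of mitosis and the spindle, chosen by symbol, and all 55 were present among the 23951 genes of each of the 2 expression tables. They fall into 11 roles, from the cyclins that drive entry into mitosis to the motors, kinetochores and cytokinesis proteins that carry it out. Their values were described in 15 RNA libraries from sorted hippocampal microglia of mice, in 5 groups of 3 libraries. All mice carried Cx3cr1CreER+/-, an inducible Cre recombinase under the promoter of the microglial gene Cx3cr1, and all received tamoxifen at 50 mg/kg on 5 days, so each control group shares both with its comparison group. At 3 months, 1 group also carried PU.1 fl/fl, which lets the Cre delete Spi1, the gene that encodes PU.1, a transcription factor of myeloid cells (PU.1 cKO). The other group did not, and tissue was taken 1 week after tamoxifen. At 4.5 months the groups were CK control littermates, CK-p25 mice, whose forebrain neurons make p25, an activator of Cdk5, once it is induced, and CK-p25 mice with PU.1 fl/fl. Here tamoxifen was given at p25 induction and tissue was collected 6 weeks later. The Cre acts in any cell that uses the Cx3cr1 promoter, and the p25 of the CK-p25 model is made by neurons and not by microglia. The study asked which microglial genes depend on PU.1 in the normal and the degenerating hippocampus.

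Cells enter mitosis when cyclin B binds the kinase Cdk1, and they leave it when the anaphase-promoting complex, activated by Cdc20, marks cyclin B and the inhibitor of separase for destruction. Between these steps kinetochores attach chromosomes to the spindle, the spindle checkpoint holds anaphase until all are attached, and the central spindle then sets the plane of cytokinesis. Most of these genes are transcribed late in the cell cycle and are held off in resting cells by the DREAM complex, which binds a promoter element called the CHR, often with CCAAT boxes nearby that bind NF-Y. Adult microglia divide rarely in the healthy brain and can divide after injury or when the population is depleted and refills.

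The promoter letters of the members are described first, and any part of them in the differences below was not tested. RefSeq promoters of the GRCm38.p6 assembly, covering 250 bases before to 50 bases after the annotated start, were found for 45 of the 55 members. The expression files use another build, mm9, per the submitters' processing notes, and were joined to these sequences by gene symbol alone. The CHR letters TTTGAA, searched on both strands, occurred in 34 of the 45 members with a promoter (75.6%), against 17.9% of all 32851 promoters of the same length in the table. Per gene, the share was 20.2% of all genes with a promoter and 14.4% of the genes tested at 3 months. Related lists held them at very different shares: 71.4% of condensins (5 of 7), 42.9% of other kinetochore and centromere genes (12 of 28) and of DREAM, MuvB and E2F factors (6 of 14), 35.7% of other spindle genes (10 of 28), 21.7% of S-phase genes (5 of 23), 16.7% of cohesins (1 of 6), 13.3% of genes of mitotic entry and exit (2 of 15) and 9.09% of anaphase-promoting complex subunits (1 of 11). The letters CCAAT, also searched on both strands, occurred in 33 members (73.3%) against 37.4% of all promoters, 41.1% of all genes with a promoter and 43.4% of the genes tested at 3 months. In the related lists the share of CCAAT ran from 36.4% of anaphase-promoting complex subunits to 65.2% of S-phase genes. Both sets of letters were present in 28 members (62.2%) against 8.97% of all genes, and matches of the 2 motifs can share no more than 1 end letter. A match of this kind is a description of the letters and not a binding site, and sites outside the window were not searched. The promoters of 3 members with the smallest p at 3 months are given 5′ to 3′ in the gene's direction, with matches of both motifs, on either strand, in capitals. Tpx2, also among the 4 smallest, has no entry in the table.
Top2a, chr11:99024140-99024439, minus strand: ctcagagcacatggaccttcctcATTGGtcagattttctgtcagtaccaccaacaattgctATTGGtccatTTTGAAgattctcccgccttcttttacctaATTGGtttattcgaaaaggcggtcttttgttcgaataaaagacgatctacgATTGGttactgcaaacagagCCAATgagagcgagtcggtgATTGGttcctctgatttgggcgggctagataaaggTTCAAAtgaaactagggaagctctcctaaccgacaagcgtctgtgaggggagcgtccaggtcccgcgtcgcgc
Bub1b, chr2:118597961-118598260, plus strand: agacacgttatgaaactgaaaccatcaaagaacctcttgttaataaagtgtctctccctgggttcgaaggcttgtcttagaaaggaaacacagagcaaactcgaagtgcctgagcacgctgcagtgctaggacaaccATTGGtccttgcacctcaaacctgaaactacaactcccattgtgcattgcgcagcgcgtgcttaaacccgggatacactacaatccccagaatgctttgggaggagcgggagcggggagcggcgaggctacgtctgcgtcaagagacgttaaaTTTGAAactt
Prc1, chr7:80294201-80294500, plus strand: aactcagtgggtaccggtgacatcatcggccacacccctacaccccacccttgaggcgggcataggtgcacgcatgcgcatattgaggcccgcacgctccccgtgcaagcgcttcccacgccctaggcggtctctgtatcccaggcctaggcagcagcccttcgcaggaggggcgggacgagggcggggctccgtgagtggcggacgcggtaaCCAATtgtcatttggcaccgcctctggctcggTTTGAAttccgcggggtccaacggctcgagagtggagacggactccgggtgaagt
Top2a held 2 CHR matches and 6 CCAAT matches, while Bub1b and Prc1 held 1 of each. For 7 more members, chosen after their values were seen, the 30 bases around the CHR match nearest the start show how its flanks differ, with the match in capitals.
Ccnb2, chr9:70421533-70421562, minus strand: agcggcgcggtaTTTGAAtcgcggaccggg
Cdk1, chr10:69352910-69352939, minus strand: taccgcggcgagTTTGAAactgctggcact
Plk1, chr7:122159453-122159482, plus strand: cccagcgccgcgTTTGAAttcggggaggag
Cdca3, chr6:124830194-124830223, plus strand: cgtggagggaagTTTGAAactccgggcttt
Ube2c, chr2:164769888-164769917, plus strand: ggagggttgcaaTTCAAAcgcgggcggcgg
Mki67, chr7:135716460-135716489, minus strand: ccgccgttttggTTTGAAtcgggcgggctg
Espl1, chr15:102296254-102296283, plus strand: tcactagggataTTTGAAaggaggtgctgg
Ube2c carries the letters on the reverse strand and the other 6 carry them forward. In 32 of the 34 members with the letters, the match nearest the start began no more than 100 bases before it, and in 20 it began at or after the start. Birc5 and Mad2l1 held neither motif, and Ccnb1 held 2 CCAAT matches without the CHR letters. At 3 months the median log2 difference, described below, was -4.25 in members with the CHR letters and -4.12 in the 11 without them.

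**Figure D1:**
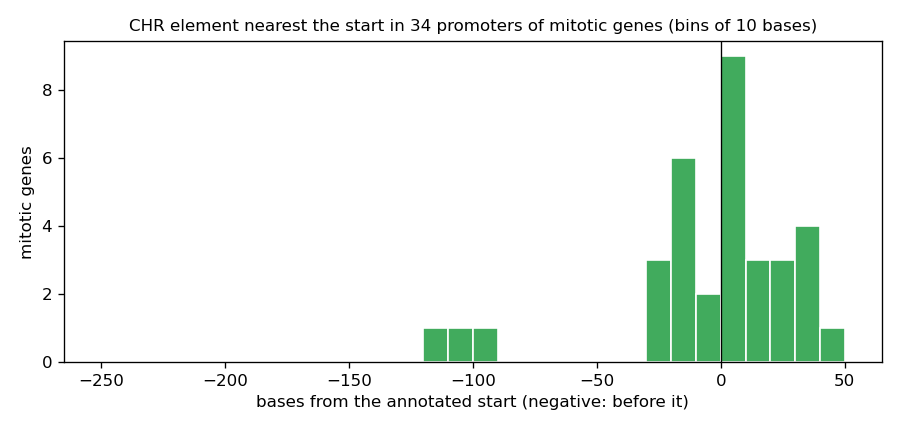
Position of the CHR letters nearest the annotated start in the 34 members that hold them (x axis, bases from the start, negative before it; y axis, number of genes in bins of 10 bases). The matches gather near the start, with 32 of 34 no more than 100 bases before it.

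Before the results, the labels of the 3-month libraries need a caution. The descriptions tie the libraries titled and genotyped as controls to columns named for PU.1, and those titled PU.1 cKO to columns named for the Cre line. The source names of these libraries also contradict their titles. Titles and descriptions were followed, so the groups are called labelled control and labelled PU.1 cKO throughout. Under the opposite reading each 3-month difference would change sign. Spi1, the targeted gene, went against the titles: it averaged 205 ± 86.3 FPKM (SD, n = 3) in the labelled control libraries and 362 ± 41.4 in those labelled PU.1 cKO. FPKM are fragment counts scaled for transcript length and library size, so levels can be compared between genes. Read depth is unknown, and between 31.6% and 42.9% of genes were listed at 0 in a library. The description of CK-p25 replicate 3 carries a code of its own (180620), while the other 8 libraries at 4.5 months share another (160706). What the codes stand for was not established. In that library 42.1% of genes were at 0, the highest share at 4.5 months. The microglial markers Cx3cr1, P2ry12, Tmem119 and Csf1r were above 0 in every library of both tables. No label says that the libraries of a group are separate animals, and the p-values reflect only how these libraries varied, which may be technical.

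At 3 months nearly the whole mitotic programme stood far higher in the labelled control libraries than in those labelled PU.1 cKO. Summed over the 55 members, the level was 2766, 1694 and 2933 FPKM in the labelled control libraries and 73.4, 71.6 and 63.6 FPKM in those labelled PU.1 cKO. All 3 libraries of the first group lay far above all 3 of the second, and their means, 2464 ± 672 and 69.5 ± 5.21 FPKM, stood in a ratio of 35.4. The members made up 0.448% of the summed FPKM of a library in the first group and 0.0127% in the second. In bulk samples, a larger share of dividing cells and more of each transcript per cell cannot be told apart. All 55 members were tested, 28 of them with a mean under 1 FPKM in the labelled PU.1 cKO libraries. Those 28 passed the level filter, a mean of 1 FPKM over the 6 libraries, only through the labelled control libraries. For them a lower mean in the labelled PU.1 cKO libraries was fixed in advance by the filter, also in the counts by role below. By limma on log2(FPKM + 1), adjusted over 10845 genes, 54 of the 55 were lower in the labelled PU.1 cKO libraries and 0 were higher, where 17.8% of all genes tested were called lower and 30.1% were called in either direction. The same 54 did not overlap between the groups, against 26.9% of all genes not overlapping in that direction. These shares of all genes also stand beside the counts by role below. Of the 27 members whose direction the filter did not fix, all but Espl1 were called lower. The count lower was also 54 with each of the 6 libraries left out in turn. The median difference was -4.15 among the members and -0.03 over all genes tested. After quantile normalization the median over all genes was 0.09, and the split of all calls moved from 1925 lower and 1344 higher to 1853 lower and 2086 higher, with 54 members still lower. The ratio of group means ran from 0.871 for Espl1 to 316 for Mybl2, which was listed at 0 in 1 labelled PU.1 cKO library, with a median of 44.9 and quartiles of 28.6 and 66.2. It was 10 or more in 53 members, the other 2 being Espl1 and Incenp.

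**Figure D2:**
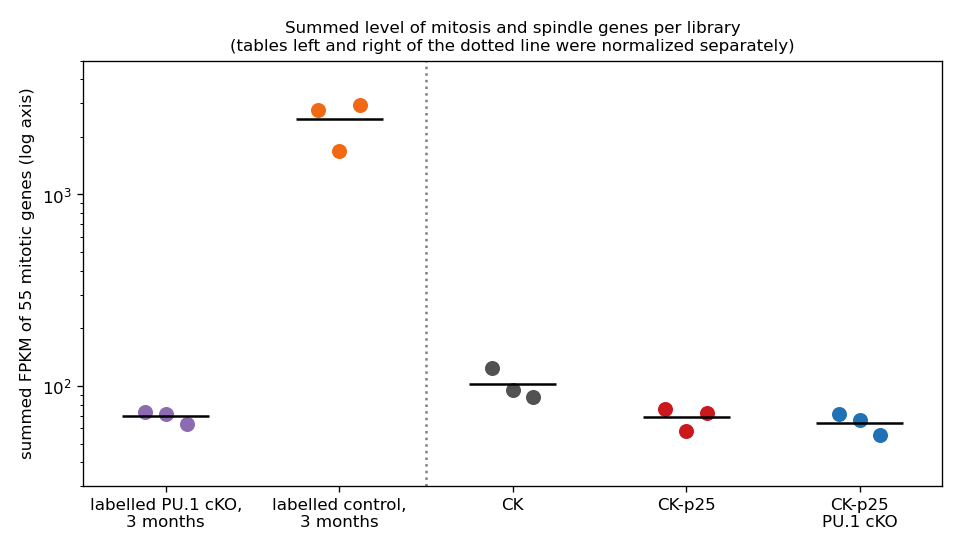
Summed FPKM of the 55 members per library (points; log axis) in the 5 groups, with group means as lines. The 3-month labelled control libraries lie between 1694 and 2933 FPKM, and the other 12 libraries lie between 55.6 and 124 FPKM; the 2 tables were normalized separately.

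Birc5, Ccnb1 and Ccnb2 had the highest mean levels over the 3-month libraries. Ccnb1, the mitotic cyclin B1, measured 145, 70.8 and 172 FPKM in the labelled control libraries and 0.958, 2.47 and 0.543 FPKM in those labelled PU.1 cKO, a log2 difference of -5.80 ± 0.41 (SE, adjusted p = 0.000209). Ccnb2, cyclin B2, measured 145, 79.0 and 151 FPKM against 0.946, 1.36 and 0.477 FPKM, a difference of -6.0 ± 0.30 (adjusted p = 8.1e-05). Neither gene overlapped between the groups, and both were lowest in replicate 2 of the labelled control libraries. Cdk1, the kinase that both cyclins activate, measured 63.3, 33.8 and 72.2 FPKM against 1.57, 1.88 and 1.58 FPKM, a difference of -4.35 ± 0.29 (adjusted p = 0.000162). Cdca3, which helps to destroy the Cdk1 inhibitor Wee1 at mitotic entry, measured 68.7, 36.1 and 68.0 FPKM against 0.886, 0.442 and 1.29 FPKM and differed by -4.94 ± 0.30 (adjusted p = 0.000126). All 8 members of this role were lower in the labelled PU.1 cKO libraries, also Ccna2 and Ccnf (cyclins A2 and F) and the phosphatases Cdc25c and Cdkn3, with differences from -6.0 to -3.33. For Ccnb2, Cdca3, Cdc25c and Cdkn3 that direction was fixed by the level filter.

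The mitotic kinases and the chromosomal passenger complex followed the same order of groups. Plk1, the kinase of spindle assembly and mitotic entry, measured 82.6, 49.9 and 96.6 FPKM in the labelled control libraries and 1.33, 1.42 and 0.702 FPKM in those labelled PU.1 cKO, a difference of -5.13 ± 0.28 (adjusted p = 9.4e-05). Pbk, a mitotic kinase also called TOPK, measured 111, 49.2 and 133 FPKM against 1.49, 2.28 and 1.5 FPKM and differed by -5.05 ± 0.36 (adjusted p = 0.000213). All 5 kinases of the set, with Aurka, Nek2 and Melk, were lower and did not overlap, the direction of Nek2 and Melk being fixed by the level filter. Birc5, survivin, the subunit that brings the passenger complex to the centromere, had the largest difference on the log2 scale of all 55 members. It measured 181, 99.3 and 223 FPKM against 1.32, 1.65 and 0.663 FPKM, a difference of -6.20 ± 0.33 (adjusted p = 9.36e-05). Its partners differed less evenly: Aurkb, the kinase of the complex, by -4.92 ± 0.29, Incenp, its scaffold, by -2.50 ± 0.18, and Cdca8, borealin, by -4.85. Incenp was also the partner with more signal left in the labelled PU.1 cKO libraries, 4.49, 4.56 and 3.94 FPKM, against 27.4, 34.3 and 26.2 FPKM.

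Genes that hold and then release anaphase gave the set's exception. Cdc20, the activator of the anaphase-promoting complex, measured 119, 74.4 and 117 FPKM in the labelled control libraries and 3.20, 1.80 and 2.26 FPKM in those labelled PU.1 cKO (-4.92 ± 0.25, adjusted p = 8.38e-05). Ube2c, the ubiquitin-conjugating enzyme of that complex, measured 132, 77.3 and 145 FPKM against 1.91, 2.97 and 1.93 FPKM (-5.16 ± 0.27, adjusted p = 9.36e-05). Both genes were separated between the groups by every library. Espl1, separase, which cleaves the cohesin ring, measured 4.55, 9.27 and 4.57 FPKM in the labelled control libraries and 7.46, 6.16 and 7.5 FPKM in those labelled PU.1 cKO. Its groups overlapped, and the difference of 0.23 ± 0.28 did not pass (adjusted p = 0.538). Its promoter holds the CHR letters 27 bases before the start. The 4 checkpoint genes Bub1, Bub1b, Ttk and Mad2l1 were all lower in the labelled PU.1 cKO libraries, with differences from -4.56 to -3.49. In all of them but Mad2l1 the level filter fixed that direction. Bub1b, the checkpoint protein BubR1, measured 42.5, 37.5 and 44.3 FPKM against 0.986, 0.951 and 0.478 FPKM, with the 3 libraries of the first group close together.

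Structural members spanned a wide range of levels with the same direction. The level filter fixed that direction for Cenpe, Cenpf, Tpx2, Nusap1, Aspm, Anln, Ect2 and all kinesins but Kif22 and Kif2c. Their means in the labelled PU.1 cKO libraries were under 1 FPKM. All 8 kinetochore and centromere genes were lower in the labelled PU.1 cKO libraries, from -4.58 for Cenpa, the histone variant of the centromere, to -2.32 for Cenpf. The role also holds the motor Cenpe, Cenpk, and Ndc80, Nuf2, Spc24 and Spc25, which make up the NDC80 complex that grips microtubules. All 9 kinesins were lower, from -4.76 for Kif22, a chromosome-arm motor, to -2.38 for Kif15, with Kif11, Kif20a, Kif20b, Kif23, Kif2c, Kif4 and Kif18b between them. Spindle assembly genes differed by -4.67 for Tpx2, the activator of Aurora A on the spindle, to -2.03 for Aspm, a spindle pole protein, with Nusap1 and Hmmr between them and all 4 called. The 4 genes of the central spindle and cytokinesis differed by -4.77 to -3.65, among them Anln, anillin, Ect2, which activates the small GTPase of the contractile ring, and Prc1, the bundler of midzone microtubules, at 72.7, 48.7 and 57.8 FPKM against 0.876, 1.33 and 1.45 FPKM. Racgap1, a partner of Kif23 in the midzone, had the highest mean level of the members in the labelled PU.1 cKO libraries, at 7.79, 7.43 and 6.21 FPKM, against 117, 76.5 and 114 FPKM.

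Top2a, the topoisomerase that untangles sister chromatids, had the smallest p of the members at 3 months. It measured 57.6, 47.4 and 47.5 FPKM in the labelled control libraries and 1.06, 1.09 and 0.891 FPKM in those labelled PU.1 cKO, a difference of -4.68 ± 0.17 (adjusted p = 3.58e-05). Mki67, the coat protein of mitotic chromosomes and a common marker of cycling cells, measured 19.5, 20.9 and 6.95 FPKM against 0.256, 0.495 and 0.362 FPKM, a difference of -3.48 ± 0.40 (adjusted p = 0.00126). In Mki67 replicate 3 was the low library of its group, whereas replicate 2 was the lowest of the labelled control libraries in 46 of the 55 members and the highest in 5. The transcription factors Foxm1 and Mybl2, which drive the late cell-cycle genes, differed by -3.03 and -2.95. Cdca2 and Cdca5, which act on chromosome structure and sister cohesion, differed by -3.83 and -3.89. Mki67, Foxm1, Mybl2, Cdca2 and Cdca5 are also among the members whose direction the level filter fixed. Across the 55 members, the order of mean levels in the labelled control libraries followed that in CK (Spearman rho 0.799) and that in the labelled PU.1 cKO libraries (0.708). The order in the labelled PU.1 cKO libraries followed that in CK more closely (0.883). These values are a description over genes that share libraries.

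**Figure D3:**
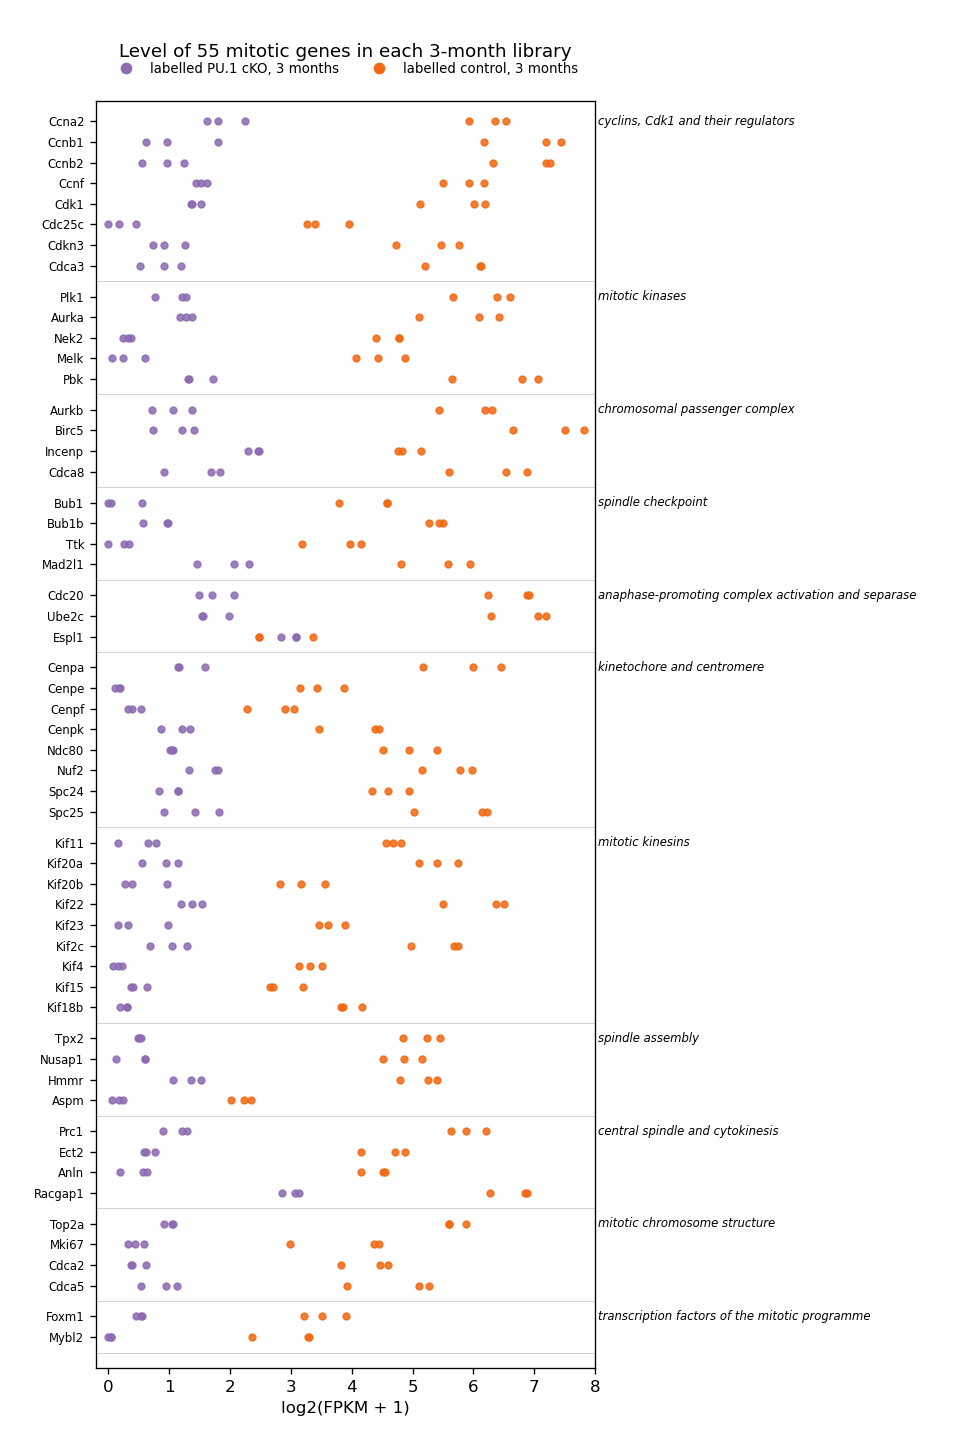
Level of each of the 55 members in the 6 libraries at 3 months (x axis, log2 of FPKM + 1; points, libraries; genes grouped by role). In 54 members the 3 labelled control libraries lie above the 3 labelled PU.1 cKO, and in Espl1 the groups overlap.

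The other genes of the cell cycle at 3 months were read from fixed lists, beside 17.8% of all genes called lower and 12.4% called higher. Genes with a mean under 1 FPKM in the labelled PU.1 cKO libraries could only be lower, since they passed the level filter through the labelled control libraries. Among them were Uhrf1 of the S-phase list (0.791 FPKM), Ncapg of the condensins (0.222) and Casc5 of the kinetochore list (0.0673). How many genes of each list are of this kind was not counted. All 30 S-phase genes were lower in the labelled PU.1 cKO libraries, with Rrm2, a subunit of ribonucleotide reductase, at 171 ± 81.7 FPKM in the labelled control libraries and 1.18 ± 0.156 in those labelled PU.1 cKO (-6.16 ± 0.38, adjusted p = 0.000126). All 8 condensin genes were lower, 27 of 32 other spindle, midzone and cytokinesis genes tested, 26 of 33 other kinetochore and centromere genes, and 10 of 16 genes of mitotic entry and exit, with medians of -2.86, -1.65, -1.81 and -2.05. The anaphase-promoting complex subunits, with which Cdc20 and Ube2c work, had 2 lower and 10 not passed of 12, close to the share of all genes, with a median of -0.55. Cohesin genes had 4 lower, 1 higher and 7 not passed of 12, and DREAM, MuvB and E2F factors had 8 lower and 10 not passed of 18, led by E2f8, an atypical E2F, and E2f1. No gene was called higher in these lists apart from the 1 cohesin gene, Mau2, named here after its value was seen.

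Some marker lists separated the 3-month groups, in either direction, and others did not. Microglial markers (9 genes) summed to between 4258 and 7075 FPKM in the labelled control libraries and to between 15917 and 18358 FPKM in those labelled PU.1 cKO. Of the 9, 7 were higher in every labelled PU.1 cKO library, among them P2ry12, a purinergic receptor of homeostatic microglia, at 4040, 3203 and 3734 FPKM against 768, 566 and 838 FPKM. Ptprc, the pan-leukocyte antigen CD45, ran the other way, and Aif1, a marker of microglia and macrophages, overlapped. Neutrophil markers (7 genes) summed to 15312 FPKM in labelled control replicate 1 and to 83.6 and 103 FPKM in the other 2 of that group, against 44.3 to 347 FPKM in the labelled PU.1 cKO libraries, so the groups overlapped. Elane and Mpo, granule genes of neutrophil precursors, were at 43.6 and 24.8 FPKM in that replicate and at 0 in the other 5 libraries. Border macrophage markers (6 genes) ran from 474 to 1528 FPKM, highest in labelled control replicate 2, against 261 to 335 FPKM, and monocyte markers (6 genes) from 41.1 to 1015 FPKM against 7.39 to 41.1 FPKM, which met at their edges. Of the neural progenitor markers (7 genes), 6 stayed under 1 FPKM in every library, and Nes, nestin, measured 8.60, 10.6 and 10.9 FPKM in the labelled control libraries against 0.235, 0.768 and 0.366 FPKM. Lymphocyte markers (8 genes) ran the other way, from 12.1 to 20.5 FPKM in the labelled control libraries against 50.6 to 66.9 FPKM. The B-cell gene Cd79b made up most of each sum and was the 1 gene of the list whose groups did not overlap. The T-cell gene Cd3e was at 0 in all 6 libraries. Astrocyte markers (6 genes) also summed lower in the labelled control libraries, from 15.4 to 31.2 FPKM against 63.1 to 71.4 FPKM. Slc1a3 was the 1 marker of the list lower in every labelled control library, at 9.46, 14.7 and 10.8 FPKM against 66.6, 56.7 and 65.9 FPKM. Gfap and Aldh1l1 went the other way, higher in every labelled control library, and 3 of the 6 overlapped. The sums of endothelial, oligodendrocyte, neuronal and erythroid markers overlapped, and the 5 erythroid markers measured summed to at most 1.01 FPKM in a labelled control library. The part of these cells in the mitotic signal was not tested.

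At 4.5 months the members were low in every group, and fewer differed. The summed level was 124, 95.3 and 87.4 FPKM for the CK libraries. The CK-p25 libraries summed to 75.6, 58.1 and 72.5 FPKM, and those of CK-p25 with PU.1 cKO to 71.1, 66.0 and 55.6 FPKM. All 6 p25 libraries lay below the lowest CK library, and the 2 p25 groups overlapped each other. The means were 102 ± 19.0, 68.7 ± 9.35 and 64.3 ± 7.95 FPKM, which are 0.673 and 0.629 of CK for the p25 groups. As a share of the summed FPKM of a library, the members made up 0.0208% in CK and 0.0112% in each p25 group. Only 30 of the 55 members reached a mean of 1 FPKM and were tested, so 25 were described without a test. These were Aspm, Hmmr, Nusap1 and Tpx2 of spindle assembly, Foxm1 and Mybl2, the kinesins Kif4, Kif11, Kif15, Kif18b, Kif20a, Kif20b and Kif23, the kinetochore genes Cenpe, Cenpf, Cenpk and Ndc80, and Anln, Bub1, Cdc25c, Cdca2, Melk, Mki67, Nek2 and Ttk. Their CK means ran from 0.181 FPKM for Mybl2 to 1.21 FPKM for Hmmr, the spindle protein RHAMM. The highest in level were Racgap1, Mad2l1 and Cdk1.

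In CK-p25 against CK, 8 of the 30 tested members fell and 1 rose, where 13.7% of the 10894 genes tested were called lower, 17.6% higher and 31.3% in either direction. Of the 30, 2 had a mean under 1 FPKM in CK-p25, and among those called Plk1 is of this kind. Its lower mean was fixed by the level filter. The members' share is close to that background in total and tilts to lower values, with a median of -0.42 against 0.00 over all genes. After quantile normalization the split of all calls moved from 1490 lower and 1922 higher to 1947 lower and 1634 higher, and 6 members fell and 1 rose. Over all 55 members, 46 had a lower mean in CK-p25 than in CK, and 24 did so with no overlap between libraries, against 16.3% of the 18107 genes above 0. Among the tested members, 12 were lower with no overlap, against 22.5% of all genes tested, and 14 had an unadjusted p under 0.05, against 42.6%. The count of members that fell was 5 without CK replicate 1, 5 without CK-p25 replicate 2, and 9 without CK-p25 replicate 3, the library with a code of its own.

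Those that fell came from several roles. Espl1, separase, measured 5.96, 4.86 and 4.78 FPKM for CK and 2.74, 1.56 and 2.62 FPKM for CK-p25, a difference of -0.92 ± 0.17 (adjusted p = 0.00466). Ube2c measured 6.72, 5.88 and 3.46 FPKM against 2.67, 1.72 and 2.95 FPKM (-0.86 ± 0.23, adjusted p = 0.0213), a call lost with only the compared libraries (adjusted p = 0.0572) and without CK replicate 1, CK replicate 2 or CK-p25 replicate 2. Prc1 measured 4.02, 3.58 and 2.93 FPKM against 1.55, 1.49 and 1.40 FPKM (-0.85 ± 0.15, adjusted p = 0.00406). In each of these genes every CK library lay above every CK-p25 library. Pbk measured 6.01, 4.58 and 3.78 FPKM against 2.25, 2.20 and 2.32 FPKM (-0.81 ± 0.16, adjusted p = 0.00538). Ccna2, cyclin A2, which acts in S phase and at mitotic entry, measured 6.01, 4.80 and 5.17 FPKM against 2.79, 3.25 and 3.09 FPKM (-0.64 ± 0.13, adjusted p = 0.00738). Mad2l1, the checkpoint protein that binds Cdc20, measured 5.40, 4.84 and 5.47 FPKM against 3.66, 3.48 and 3.13 FPKM (-0.49 ± 0.09, adjusted p = 0.00527). These 3 were also separated by every library. Plk1 (3.09, 1.72 and 1.65 against 1.31, 0.728 and 0.369 FPKM, -0.81 ± 0.26, adjusted p = 0.0464) and Ccnf (2.95, 2.44 and 1.95 against 1.46, 1.33 and 1.27 FPKM, -0.54 ± 0.17, adjusted p = 0.0459) passed narrowly. Both lost the call under most alternatives, among them quantile normalization (adjusted p = 0.0601 and 0.114). Plk1 averaged 0.802 FPKM in CK-p25 and 0.726 FPKM with the deletion, so it passed the level filter only through CK, at 2.15 FPKM.

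Cdk1 was the 1 member that rose in CK-p25. It measured 3.77, 2.36 and 1.95 FPKM in the CK libraries, against 5.53, 4.30 and 5.58 FPKM under p25, a difference of 0.76 ± 0.19 (adjusted p = 0.0173). The lowest CK-p25 library lay above the highest CK library. The adjusted p was 0.0635 without CK replicate 2, 0.0605 without CK replicate 3 and 0.0527 without CK-p25 replicate 1. Its partner cyclins pointed the other way: Ccnb1 measured 4.91, 2.54 and 2.94 FPKM against 2.36, 1.55 and 1.46 FPKM (-0.66 ± 0.22, adjusted p = 0.0508), which did not pass but did without CK replicate 2 (adjusted p = 0.0473) or CK-p25 replicate 1 (0.0402), with median centring (0.0417), with no trend (0.0418) and with a pseudocount of 0.1 (0.0458). Of the others always followed, Top2a measured 2.53, 2.02 and 1.57 against 1.15, 0.943 and 1.43 FPKM (-0.48 ± 0.18, adjusted p = 0.072, 0.038 without CK-p25 replicate 3 and 0.0311 with no trend) and Birc5 measured 4.09, 2.59 and 1.81 against 2.02, 1.01 and 1.31 FPKM (-0.62 ± 0.25, adjusted p = 0.0952). Neither passed in the model reported here, and CK and CK-p25 overlapped in Birc5. Mki67 was under the level filter, at 0.406, 0.589 and 0.63 FPKM for CK, 0.196, 0.221 and 0.17 for CK-p25 and 0.199, 0.32 and 0.14 with the deletion, with every p25 library below every CK library. With no filter, 12 members fell and 1 rose, where 7.7% of 18107 genes were called lower and 10% higher. Among the 12 were Ttk, Melk, Kif11, Kif23, Mki67 and Cdca2, which the level filter had removed.

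**Figure D4:**
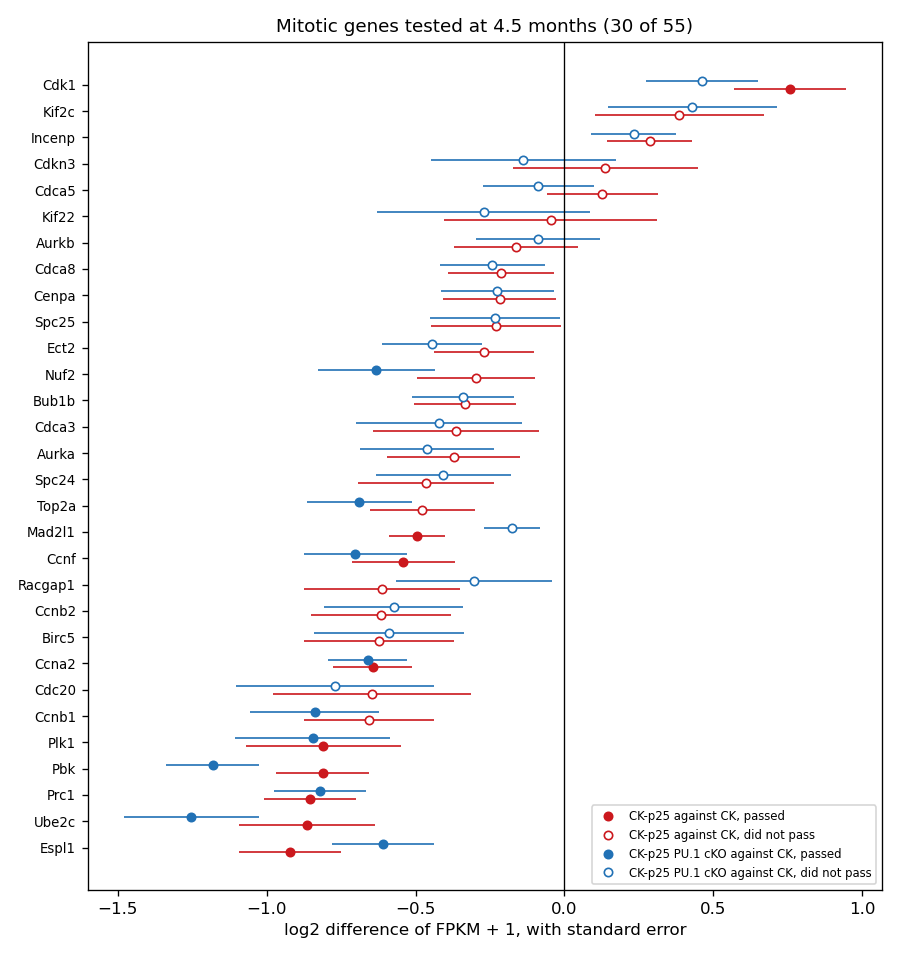
Difference of the 30 tested members from CK (x axis, log2 of FPKM + 1; points, estimates; bars, standard error; filled, past the threshold). In both p25 groups most members lie below 0, 8 and 10 of them past the threshold, and Cdk1 lies above 0 and passes in CK-p25 alone; the comparisons share the CK libraries.

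In CK-p25 PU.1 cKO against CK, 10 of the 30 tested members fell and 0 rose by limma (15 had an unadjusted p under 0.05, against 41.9% of all genes), where 13.3% of 10894 genes were called lower, 17.8% higher and 31.1% in either direction. The median was -0.43 against 0.00 over all genes. Of the 30 tested, 7 had a mean under 1 FPKM with the deletion, against 2 in CK-p25 and 1 in CK, and Top2a, Nuf2 and Plk1 among those called are of this kind: they passed the level filter through higher values in other groups. Quantile normalization moved the split of all calls from 1447 lower and 1937 higher to 2003 lower and 1702 higher, and 9 members fell. Over all 55 members, 50 had a lower mean than in CK and 34 did so with no overlap, against 20.7% of the genes above 0. Of the 30 tested, 15 were lower with no overlap, against 29.1% of all genes tested. This comparison shares the CK libraries with the one before, so the 7 members called lower in both are not independent evidence. The count was 4 without CK replicate 1, and 5 without CK replicate 2 or without the second or the third library with the deletion. CK replicate 1 was the highest CK library in 43 of the 55 members, and its border macrophage markers summed to 6.49 FPKM, against 260 and 310 FPKM in the other CK libraries. The part of that difference in the mitotic values was not tested.

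Ube2c fell the furthest, at 1.71, 1.66 and 1.44 FPKM with the deletion (-1.25 ± 0.23 from CK, adjusted p = 0.00404). Pbk followed at 1.36, 1.74 and 1.48 FPKM (-1.18 ± 0.16, adjusted p = 0.000898). Both groups of values lay below all CK and all CK-p25 libraries. Prc1 measured 1.68, 1.17 and 1.82 FPKM (-0.82 ± 0.15, adjusted p = 0.00478) and Ccna2 3.33, 3.29 and 2.42 FPKM (-0.66 ± 0.13, adjusted p = 0.00644). Ccnb1 measured 1.59, 1.33 and 1.39 FPKM (-0.84 ± 0.22, adjusted p = 0.0197) and Top2a 0.917, 0.921 and 0.777 FPKM (-0.69 ± 0.18, adjusted p = 0.0184). All 4 lay below every CK library, and the calls of Ccnb1 and Top2a were lost without CK replicate 1 (adjusted p = 0.0536 and 0.0691) and without replicate 2 or 3 of the deletion group, that of Top2a also without CK replicate 2 (0.0597). Ccnf measured 1.36, 1.23 and 0.771 FPKM (-0.70 ± 0.17, adjusted p = 0.0163), a call lost without CK replicate 1 or 2, and Plk1 0.775, 0.903 and 0.499 FPKM (-0.85 ± 0.26, adjusted p = 0.0396), a call lost without any 1 of 5 libraries. Espl1, at 3.44, 3.06 and 2.67 FPKM (adjusted p = 0.0272), and Nuf2, of the NDC80 complex, at 1.01, 0.821 and 0.864 FPKM (adjusted p = 0.0419), completed the 10. Cdk1 measured 4.53, 3.68 and 3.77 FPKM, 0.46 ± 0.19 above CK (adjusted p = 0.0991), and passed without CK replicate 1 (0.66, adjusted p = 0.0212). Birc5, at 1.82, 1.45 and 1.18 FPKM, overlapped with CK and did not pass (adjusted p = 0.113). With no filter, 15 members fell, where 7.62% of 18107 genes were called lower, among them Foxm1 at 0.434, 0.458 and 0.388 FPKM against 1.56, 1.07 and 0.951 FPKM in CK.

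**Figure D5:**
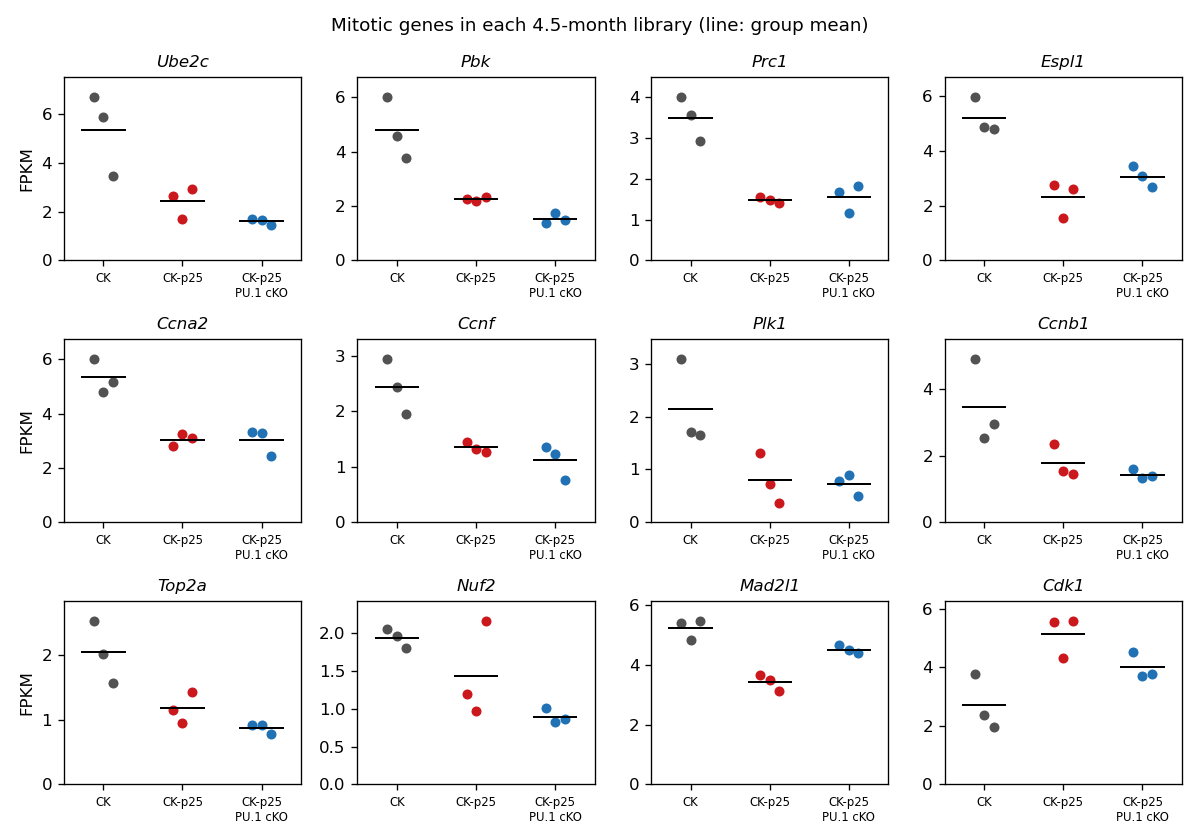
FPKM of 12 members in each library at 4.5 months (points; lines, group means) in CK, CK-p25 and CK-p25 PU.1 cKO. In Ube2c, Pbk and Prc1 all 6 p25 libraries lie below the 3 CK libraries, and in Cdk1 the 3 CK-p25 libraries lie above them.

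Between CK-p25 PU.1 cKO and CK-p25, 0 of the 30 tested members passed with limma, where 0% of the 10894 genes were called. At an unadjusted p under 0.05 there were 2 members, against 6.16% of all genes, and their median difference was -0.05. Without overlap, 3 were lower and 1 higher, against 4.56% and 4.82% of all genes. The members with the smallest p did not pass. Mad2l1, at 4.65, 4.49 and 4.40 FPKM with the deletion, was 0.32 ± 0.09 above CK-p25 (95% interval 0.10 to 0.54, adjusted p = 0.745), without overlap. Pbk was 0.37 lower (-0.37 ± 0.16, interval -0.73 to -0.01), without overlap. Espl1 was 0.31 ± 0.17 higher (interval -0.08 to 0.70), with overlapping groups. A p that missed the threshold does not show that the members were alike in the 2 groups. Spi1 itself averaged 252 ± 45.1 FPKM in the CK-p25 libraries and 180 ± 38.5 FPKM with its deletion, so its transcript was still listed there.

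The calls by role at 4.5 months rest on 2 to 7 tested members in each of the 9 roles with any, and are counts beside the 13.7% and 13.3% of all genes called lower in CK-p25 and with the deletion. The mitotic kinases had 2 of 3 tested members lower in each p25 group, among them Plk1, whose direction the level filter fixed. Activators of the anaphase-promoting complex with separase had 2 of 3 in each. The chromosomal passenger complex had 0 of 4 in both, with Incenp at 2.92, 3.78 and 2.41 FPKM for CK and 3.99, 3.55 and 4.1 FPKM for CK-p25. Cyclins and their regulators had 2 lower and 1 higher of 7 in CK-p25 and 3 lower of 7 with the deletion, and the central spindle had 1 lower of 3 in each. The checkpoint had 1 lower of 2 and then 0, and the kinetochore 0 of 4 and then 1. Of the 2 chromosome structure genes tested, 0 fell in CK-p25 and Top2a fell with the deletion. Neither of the 2 kinesins tested passed, and none of the 4 spindle assembly genes or the 2 transcription factors reached the level filter. Whether roles differ from each other was not tested.

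Related lists at 4.5 months are given by their counts, beside 17.6% of all genes called higher and 13.7% called lower in CK-p25, and 17.8% and 13.3% with the deletion. Of 19 other kinetochore and centromere genes tested in CK-p25 against CK, 1 rose and 1 fell, and of 19 other spindle, midzone and cytokinesis genes 2 rose and 0 fell. Mitotic entry and exit control had 4 higher and 0 lower of 11, among them Pttg1, securin, the inhibitor of separase, at 59.1 ± 4.91 FPKM against 38.7 ± 6.83 for CK (0.61 ± 0.13, adjusted p = 0.00991). S-phase genes had 2 higher and 2 lower of 22, with Pcna, the polymerase clamp, higher (0.47 ± 0.11) and Mcm2, a subunit of the replicative helicase, lower (-0.43 ± 0.11). Condensins had 1 higher and 1 lower of 6, the latter being Ncaph, at 4.29 ± 1.44 FPKM against 9.63 ± 0.576 FPKM (-1.04 ± 0.17, adjusted p = 0.00286). DREAM, MuvB and E2F factors had 2 higher and 4 lower of 16, anaphase-promoting complex subunits 2 higher and 0 lower of 12, and cohesins 0 higher and 1 lower of 11. The medians of these 8 lists ran from -0.17 to 0.32, against -0.42 among the members tested. In CK-p25 PU.1 cKO against CK the S-phase list had 2 higher and 5 lower, DREAM, MuvB and E2F factors 3 and 4, anaphase-promoting complex subunits 2 and 2, condensins 1 and 1, and cohesins 0 and 0. The other kinetochore list had 1 higher and 0 lower, the other spindle list 4 and 0, and mitotic entry and exit control 3 and 0, with Pttg1 higher here as well at 72.3 ± 6.57 FPKM (0.89 ± 0.13, adjusted p = 0.00158).

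At 4.5 months the sums of microglial and of astrocyte markers separated both p25 groups from CK, while those of most other lists overlapped. Microglial markers (9 genes) summed to between 13909.5 and 14852 FPKM for CK, 6494 and 7817 for CK-p25, and 6346 and 7672 with the deletion. Of the 9, 7 were lower and 2 higher than CK in every CK-p25 library, and 6 were lower and 1 higher with the deletion. P2ry12 ran from 3637 to 4301 FPKM for CK, from 717 to 999 for CK-p25 and from 783 to 848 with the deletion. Astrocyte markers (6 genes) summed to 47.2 to 66.1 FPKM for CK, 84.9 to 298 for CK-p25 and 90.0 to 185 with the deletion. Only Gfap was higher than CK in every CK-p25 library, at 27.6, 203 and 32.0 FPKM against 1.36, 4.13 and 2.72 FPKM. The other 5 overlapped there, and with the deletion 3 were higher in every library and 3 overlapped. Erythroid markers (5 genes) summed to 9.26 to 19.6 FPKM with the deletion and to at most 1.34 FPKM elsewhere. Lymphocyte markers (8 genes) summed lower in CK-p25, at 19.3 to 23.2 FPKM against 28.2 to 34.3 for CK. Most of each of these sums was 1 gene, Cd79b, at 20.6, 15.4 and 19.3 FPKM against 31.9, 26.2 and 28.6 FPKM. It was lower in every library, and the other 7 overlapped. With the deletion the lymphocyte sums overlapped (3.41 to 44.3), while Cd79b was lower than CK in every library, at 3.12, 3.89 and 21.8 FPKM. Nkg7, at 0, 16.1 and 12.7 FPKM, and Cd3e, at 0.126, 5.09 and 3.63 FPKM, lay above every CK library in replicates 2 and 3 only. Neutrophil markers (7 genes) ran from 0.163 to 119, from 0.0677 to 797 and from 23.5 to 161 FPKM, and overlapped, as did the sums of border macrophage, monocyte, neuronal, oligodendrocyte and endothelial markers in both comparisons with CK. Neural progenitor markers (7 genes) summed to 0.964 to 1.51 FPKM for CK, 0.448 to 3.78 for CK-p25 and 1.83 to 2.55 with the deletion. The part of other cells in the mitotic values was not tested.

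Reads of overlapping genes cannot be told apart here, since SMART-Seq v4 with Nextera XT keeps no record of strand. By RefSeq annotation 12 of the 55 members overlap another gene of the tables, among them Cdc20 with Elovl1, Prc1 with Rccd1, Ccna2 with Exosc9, Aurka with Cstf1 and Nusap1 with Oip5.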

How the data were processed

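RNA of microglia sorted for CD11b and CD45 was made into libraries with SMART-Seq v4 and Nextera XT kits, per the labels' protocols. The values deposited by the authors are FPKM per gene, in 1 table per age. TopHat, Bowtie, Cufflinks 2.0.0 and the build mm9 are named in the submitters' processing notes. Columns were matched to samples by the descriptions, and 0 columns were left unmatched. The 4 chromatin samples were not analysed here. Of the microglial marker list, 1 gene is not reported here.

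FPKM are not counts, so log2(FPKM + 1) was fitted with limma 3.58.1 in R 4.3.3, with a mean-variance trend, in 1 model per table over genes whose mean reached 1 FPKM. P-values were two-sided and Benjamini-Hochberg adjusted over all genes tested, with a threshold of 0.05. A pseudocount of 1 understates changes of low genes. On simulated data, 69% of genes changed by 1 log2 unit and 89% by 2 were recovered in CK-p25 against CK (10894 genes), and 22% and 71% at 3 months (10845 genes). Only 200 genes were changed in each simulation, while 31.3% and 30.1% of genes were called in the data. The adjustment depends on that share, so these figures do not give the share recovered in the tests reported. Alternatives were another pseudocount, filters, scalings, no trend, a replicate block, only the compared libraries and leaving out each library. Named throughout were Mki67, Top2a, Birc5, Cdk1 and Ccnb1, then per comparison up to 8 rises and 8 falls past the threshold without overlap, or the 3 smallest p, and the 3 highest members per table. Of each related list, up to 3 examples could be named. The members and lists were chosen with earlier results of these data known. Promoters came from RefSeq.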

Additional observations from a re-analysis of the deposited data

Results flagged for a closer look

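Mad2l1, the spindle checkpoint protein, pointed in opposite directions between the groups named for PU.1 deletion and their comparison groups at the 2 ages, with no overlap of libraries at either. At 4.5 months it was 0.32 higher (log2) in CK-p25 PU.1 cKO than in CK-p25, a difference that did not pass (limma adjusted p = 0.745). In that comparison 0 of 10894 genes were called, and 2 of the 30 members had an unadjusted p under 0.05, against 6.16% of all genes. Of the 30, 1 was higher without overlap, against 4.82% of all genes. Over all 55 members 18 had a higher mean, so opposite signs were not particular to Mad2l1. Racgap1, with overlap at 4.5 months, stood at 0.31 there and at -3.65 at 3 months. At 3 months it stood at -3.49 in the libraries labelled PU.1 cKO against those labelled control, where Spi1 went against the labels. The 2 tables were normalized separately and the difference between the ages was not tested. With the other reading of the 3-month labels both values would point the same way.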

How the results depend on the processing

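At 3 months 54 members were lower under each alternative except the filter at 5 FPKM, where 48 of the 49 members kept were lower, and the range without each library in turn was 54 to 54. The number of all genes called there ran from 1540 to 4731 when 1 library was left out. In CK-p25 against CK, members lower numbered 0 at the filter of 5 FPKM, which kept 1 member, 5 with only the compared libraries, and 5 to 9 without each library in turn. Members higher there numbered 0 at that filter and 0 to 1 without a library. In CK-p25 PU.1 cKO against CK, members lower numbered 0 at that filter and 4 to 12 without a library, and members higher 0 to 1. In CK-p25 PU.1 cKO against CK-p25, 0 members passed in any alternative, while all genes called numbered 2 with no filter, 4 with no filter and a pseudocount of 0.1 (an alternative chosen after seeing the data), 2 with only the compared libraries, 1 after quantile normalization and 0 to 25 without a library. Whether the replicate numbers of the titles pair the libraries is not settled. The correlation of deviations ran from -0.05 to 0.17 in same-numbered pairs and from -0.26 to 0.15 in the others. A replicate block gave 11 lower and 1 higher, 10 lower, and 0 in the 4.5-month comparisons in that order, and 54 lower at 3 months. With the block, Birc5 passed by limma in both comparisons with CK (adjusted p = 0.0403 and 0.0485) and Ccnb1 in CK-p25 (0.0263). The cause of these shifts was not tested. Of the values of single members under alternatives, 532 kept direction and side of the threshold, 48 lost the call, 11 gained it and 0 reversed. Leaving out a library leaves 2 in its group. Depth is unknown, so the reads behind values under the level filter cannot be counted.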
